A study of Mus musculus with 8 samples.

Results

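The 10 genes described here are 8 ligands and 2 receptors of the CXC chemokine family, read by gene symbol from the 32285 genes that each expression matrix lists. The ligands are Cxcl1, Cxcl2, Cxcl9, Cxcl10, Cxcl12, Cxcl13, Cxcl14 and Cxcl16, and the receptors are Cxcr4 and Ackr3. All 10 were found. None was chosen by a rule on its value here, but earlier results of these data were known when the genes were chosen. A further 13 CXC ligands and receptors were found in the same matrices and serve as context. CXC chemokines are small secreted proteins that steer leukocytes. Cxcl1 and Cxcl2 attract neutrophils through Cxcr2, Cxcl9 and Cxcl10 are induced by interferon and attract T cells and NK cells through Cxcr3, and Cxcl13 attracts B cells through Cxcr5. Cxcl16 is made as a membrane protein that can be shed by Adam10 and binds Cxcr6. Cxcl12 is produced constantly by stromal and vascular cells, signals through Cxcr4 and is also bound by Ackr3, which takes it up and removes it rather than signalling through G proteins. Cxcl14 is a homeostatic chemokine of connective tissue and epithelium.

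The tissue was the heart of male wild type C57BL/6J mice that were 8 weeks old at surgery. In transverse aortic constriction (TAC) a ligature narrows the aortic arch and puts the left ventricle under pressure. Sham animals had the operation with no ligature, and the labels give no time after surgery for them. One spatial section (Visium, in which each spot covers a small tissue area that can hold several cells) and one single-cell library (10x Genomics) were made per condition, the conditions being sham and 2, 4 or 6 weeks after the ligature (TAC-2w, TAC-4w, TAC-6w). How many hearts went into a library is not stated, and the labels describe a preparation of nuclei while the methods of the study describe one of whole cells.

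With 1 section and 1 library per condition, no difference between conditions could be tested. Intervals given with such values are exact 95% Poisson or binomial intervals and cover counting error only. Levels are counts per 1000000 UMIs (CPM) of a section or of the summed cells of a type, a UMI being 1 counted RNA molecule. By the labels the sham and TAC-2w sections shared batch 1, the TAC-4w section was batch 2 and the TAC-6w section batch 3, while the sham and TAC-6w libraries shared batch 3, TAC-2w was batch 1 and TAC-4w batch 2. The sections held 25996378 to 48754396 UMIs over 1228 to 2193 spots. The libraries kept 5399 to 7965 cells with medians of 4449 to 10717 UMIs, and libraries shared 9 to 30 cell barcodes. Clusters of cells were made without the 10 genes and named from fixed markers, and the names are written here without "-like". The largest types were fibroblasts (11018 cells), macrophages (4295), B cells (3732), endothelial cells (1740) and neutrophils (1663). The TAC-4w library stood apart in its makeup, with 432 fibroblasts, 164 macrophages, 1254 neutrophils and 2428 B cells, against 4483, 1622, 145 and 232 in sham. Cardiomyocytes, which fill most of a section, were only 213 of the cells.

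Promoter sequences are shown for the pair of neutrophil attractants, the pair of interferon-induced ligands and Cxcl12, to set inducible ligands beside one that is produced constantly. They run from 250 bases before to 50 bases after the annotated start, 5′ to 3′ on the strand of the gene, as RefSeq gives them for build GRCm38.p6. Of the 10 genes 9 had an entry, and Cxcl16 had none. Capitals mark matches on either strand to GGGANNTTCC or GGGGNNTTCC, letters of the kind bound by NF-kB, and to TTTCNNTTTC, letters of the kind bound by interferon response factors. These letters were chosen after the sequences were seen.
Cxcl1, chr5:90890995-90891294, + strand: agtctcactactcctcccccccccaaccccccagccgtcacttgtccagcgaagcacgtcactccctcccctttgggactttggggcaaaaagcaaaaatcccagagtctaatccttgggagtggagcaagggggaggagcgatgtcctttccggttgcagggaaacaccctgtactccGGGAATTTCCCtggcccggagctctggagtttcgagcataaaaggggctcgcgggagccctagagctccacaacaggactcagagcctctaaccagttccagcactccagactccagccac
Cxcl2, chr5:90903649-90903948, + strand: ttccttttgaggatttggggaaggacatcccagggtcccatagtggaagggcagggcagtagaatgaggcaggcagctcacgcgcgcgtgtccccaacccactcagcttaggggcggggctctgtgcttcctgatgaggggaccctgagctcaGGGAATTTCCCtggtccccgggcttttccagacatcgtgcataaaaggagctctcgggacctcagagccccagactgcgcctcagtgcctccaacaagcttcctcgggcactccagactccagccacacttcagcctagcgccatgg
Cxcl9, chr5:92328030-92328329, - strand: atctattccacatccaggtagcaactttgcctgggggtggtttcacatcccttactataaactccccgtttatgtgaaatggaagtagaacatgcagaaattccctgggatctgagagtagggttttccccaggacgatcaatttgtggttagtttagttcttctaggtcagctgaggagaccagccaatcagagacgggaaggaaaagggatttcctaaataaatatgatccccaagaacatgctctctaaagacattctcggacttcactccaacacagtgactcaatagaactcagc
Cxcl10, chr5:92348840-92349139, - strand: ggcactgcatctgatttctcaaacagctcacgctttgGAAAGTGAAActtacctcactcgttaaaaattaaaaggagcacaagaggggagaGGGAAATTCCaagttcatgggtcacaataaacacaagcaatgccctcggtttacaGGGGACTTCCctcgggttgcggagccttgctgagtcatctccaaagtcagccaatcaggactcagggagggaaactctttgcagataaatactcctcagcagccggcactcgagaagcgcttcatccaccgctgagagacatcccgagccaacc
Cxcl12, chr6:117168285-117168584, + strand: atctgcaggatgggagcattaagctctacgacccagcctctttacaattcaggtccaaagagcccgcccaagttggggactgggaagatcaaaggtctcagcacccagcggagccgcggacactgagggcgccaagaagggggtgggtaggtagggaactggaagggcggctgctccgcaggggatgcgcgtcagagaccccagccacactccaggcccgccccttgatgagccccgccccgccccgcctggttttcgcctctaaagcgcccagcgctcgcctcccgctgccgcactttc

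The Cxcl1 and Cxcl2 windows each held the A form of the NF-kB-like letters, read on both strands at the same place, from 71 to 61 bases before the start of Cxcl1 and from 97 to 87 bases before that of Cxcl2. The Cxcl10 window held the A form from 159 to 150 bases before the start, the G form from 104 to 95 bases before it and the interferon-like letters from 213 to 204 bases before it. Among 32851 promoter windows of the same length, 2.92% held one of the NF-kB-like forms and 3.44% the interferon-like letters. In the Cxcl9 and Cxcl12 windows none of the 3 spellings occurred. Of the windows not printed, that of Cxcl14 held the interferon-like letters from 172 to 163 bases before the start, and those of Cxcl13, Cxcr4 and Ackr3 held none. A match of this kind is a description of the letters only.

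The members differed in the dissociated cell types that carried them. Fibroblasts carried on average 91.5% of the Cxcl1 UMIs and 96.7% of the Cxcl14 UMIs of a library, endothelial cells had the highest Cxcl12 level, neutrophils the highest Cxcl2 level, and macrophages the highest Cxcl10, Cxcl13 and Cxcl16 levels. Cxcl9 was shared by endothelial cells and macrophages. Of the receptors, Cxcr4 was highest in neutrophils, monocytes and B cells, and Ackr3 in fibroblasts and then in endothelial cells. Rankings of types, here and below, cover the named types only. Unnamed cells, among them a cluster of 323 cells led by Cd209a and Retnla, were not ranked.

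**Figure D1:**
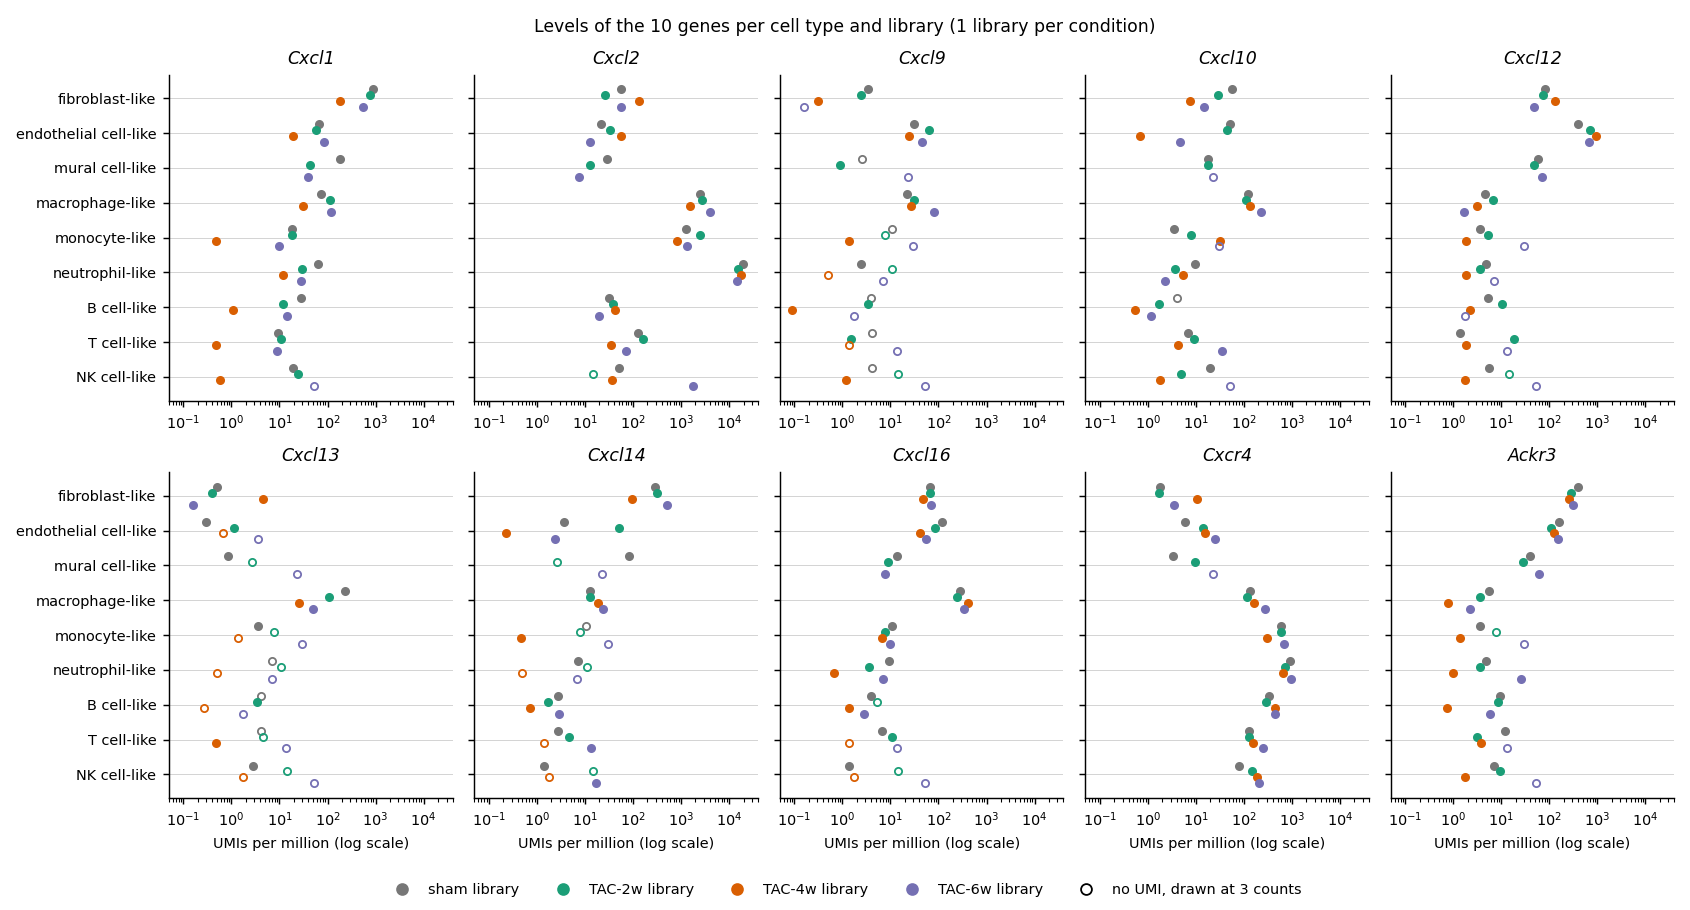
Levels of the 10 genes (CPM, log axis) in each cell type, with 1 point for each of the 4 libraries. Cxcl2 lay between 14532 and 19364 CPM in neutrophils, Cxcl12 between 391 and 952 CPM in endothelial cells, and Ackr3 between 251 and 401 CPM in fibroblasts.

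These differences between types were tested over the 4 libraries, 1 of each condition, with edgeR on UMI sums per type and library. The library was the block, and 1 fit to all named types together set the spread for every contrast. Folds between types are those of this fit, which rescales the sums (TMM), and can differ from the ratio of the CPM values beside them. Of the 10 genes, 3 were higher and 3 lower in fibroblasts than in endothelial cells, where 20.6% and 17.1% of all 11117 genes were. Against macrophages, fibroblasts had 4 higher and 6 lower (28.6% and 26.0% of all genes), so that all 10 differed. Endothelial cells had 2 higher and 6 lower than macrophages (24.4% and 23.1%). Mural cells, which are pericytes and smooth muscle cells, had 0 higher and 4 lower than fibroblasts (12.5% and 15.9%), the 4 being Cxcl1, Cxcl14, Cxcl16 and Ackr3. Only 3 libraries had enough mural cells for this contrast. Neutrophils had 3 higher and 5 lower than macrophages (23.0% and 32.5%), and B cells had 1 higher and 6 lower than fibroblasts (25.5% and 36.3%). The single gene higher in B cells was Cxcr4.

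Cxcl1 in fibroblasts was 886 CPM in sham, 766 in TAC-2w, 178 in TAC-4w and 551 in TAC-6w, a mean of 595 ± 311 (SD, n = 4). Its level was 11.3 times that in endothelial cells (log2 fold 3.50, SE 0.39, adjusted p = 6.46e-11) and 5.70 times that in macrophages (adjusted p = 8.20e-08). The 4 fibroblast values lay above the endothelial and macrophage values of the same libraries, but the lowest fibroblast value, that of TAC-4w, lay just under the highest mural value of 178 CPM. Macrophages held Cxcl1 at 73.4, 114, 30.6 and 119 CPM, given from sham to TAC-6w. The lower Cxcl1 level of endothelial cells than of macrophages (log2 fold -0.99, adjusted p = 0.0255) was lost under 11 of the alternatives tried.

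Cxcl2 was carried by nearly every neutrophil, with 91.2% to 100% of these cells holding at least 1 UMI. B cells, the background type for this gene and for the other ligands but Cxcl16, held a Cxcl2 UMI in 1.97% to 13.7% of cells, at medians of 1902 to 4348.5 UMIs against 1445 to 3418 in neutrophils. Its neutrophil level was 19364 CPM in sham, 15197 in TAC-2w, 17385 in TAC-4w and 14532 in TAC-6w, a mean of 16619 ± 2198. In macrophages it was 2535, 2721, 1557 and 3957 CPM, with 53.7% to 70.2% of cells holding a UMI. The ranges of both types lay apart, and the fold was 9.38 (log2 3.23, SE 0.85, adjusted p = 0.00107). Macrophages outnumbered neutrophils in 3 of the 4 libraries. The mean share of a library's Cxcl2 UMIs was 48.6% in macrophages and 36.2% in neutrophils, but the libraries differed. Macrophages held 31231 UMIs in sham, 40466 in TAC-2w, 1982 in TAC-4w and 14049 in TAC-6w. Neutrophils held 8125, 4148, 104475 and 6253 in the same order. Among neutrophil sub-clusters Cxcl2 ranged widely, from 28999 CPM in one led by Slfn5 and Rsad2 and 25772 in one led by Nrgn to 5089 in one led by Mmp8 and Mmp25 and 642 in the 63 immature cells led by Fcnb and Camp, which hold granule genes of bone marrow precursors. Cxcr4 was ordered alike in 3 of these, with 1206 CPM in the Slfn5 sub-cluster, 220 in the Mmp8 one and 67.1 in the immature cells. Its levels in the other sub-clusters are not given here. The Nrgn sub-cluster was also led by the platelet genes Pf4 and Ppbp, and 64 of its 65 cells came from TAC-4w. The cells that carry the receptor of Cxcl1 and Cxcl2 were also neutrophils, in which Cxcr2 was 481 ± 148 CPM and Cxcr1 19.4 CPM.

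Cxcl9 in endothelial cells was 31.5 CPM in sham, 64.9 in TAC-2w, 23.9 in TAC-4w and 45.5 in TAC-6w, with 7.7% to 13.2% of cells holding a UMI. Macrophages had 21.9, 30.7, 26.7 and 81.4 CPM in the same order, yet only 1.3% to 3.0% of macrophages held a UMI, and a single cell held 46.3% to 61.4% of the macrophage UMIs of each library. In B cells the share was 0% to 1.27%. The ranges of endothelial cells and macrophages overlapped, and no difference was called (log2 fold -0.32, SE 0.42, unadjusted p = 0.443). Cxcl9 was thus found in a larger share of endothelial cells than of macrophages in each library. Fibroblasts were lower than both types, by 4.35 on the log2 scale against endothelial cells (adjusted p = 3.16e-11) and by 4.67 against macrophages (adjusted p = 4.63e-12).

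Within endothelial cells the Cxcl9 level differed between sub-clusters. The capillary sub-cluster, led by the carbonic anhydrase gene Car4, had 168 CPM of Cxcl9 in sham, 164 in TAC-2w, 62.3 in TAC-4w and 109 in TAC-6w. A UMI was held by 20.7% to 38.4% of its cells. It had 71, 112, 179 and 80 cells in the same order, and capillary cells here and below are these cells only. Sub-clusters of 262 and 237 cells also scored highest for capillary markers but stayed unnamed, with medians of 1407 and 1159 UMIs. They held 98 and 76 sham, 159 and 119 TAC-2w, 2 and 34 TAC-4w, and 3 and 8 TAC-6w cells. In the arterial sub-cluster, led by the gap junction gene Gja5, all 254 cells lacked a Cxcl9 UMI, which allows up to 1.18% of cells with a UMI and sets no limit on cells that express the gene. The endocardial or large vessel sub-cluster, led by Npr3, held 4 Cxcl9 UMIs in 272 cells.

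Cxcl10 in macrophages was 121 CPM in sham, 112 in TAC-2w, 133 in TAC-4w and 227 in TAC-6w, with 8.5% to 20.5% of cells holding a UMI. A single cell held 46.2% of the TAC-4w UMIs. Fibroblasts had 55.3, 28.7, 7.46 and 14.7 CPM, 0.124 times the macrophage level by the fit (log2 fold -3.02, SE 0.49, adjusted p = 4.65e-07). Endothelial cells averaged 25.0 CPM and were lower than macrophages by 3.28 on the log2 scale (adjusted p = 3.73e-07). In fibroblasts 1 small sub-cluster, led by the interferon-induced gene Ifit3, had Cxcl10 at 877 CPM in sham (69 cells), 252 in TAC-2w (29 cells) and 966 in TAC-6w (10 cells), while TAC-4w had 1 such cell. It held 683 of the 2688 fibroblast UMIs of Cxcl10 in sham, 98 of 1188 in TAC-2w and 68 of 279 in TAC-6w, so most lay in other fibroblasts. Cxcr3, the receptor of Cxcl9 and Cxcl10, was 97.6 ± 26.2 CPM in T cells and 36.9 CPM in NK cells.

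Cxcl12 in endothelial cells was 391 CPM in sham, 710 in TAC-2w, 952 in TAC-4w and 672 in TAC-6w, a mean of 681 ± 230, with 44.1% to 80.9% of cells holding a UMI. Fibroblasts had 80.0, 74.4, 129 and 47.1 CPM. The fibroblast level was 0.129 times the endothelial level (log2 fold -2.96, SE 0.37, adjusted p = 1.49e-09), and the endothelial level was 131 times the macrophage level (log2 fold 7.03, SE 0.47, adjusted p = 6.41e-19). Every endothelial value lay above every fibroblast value. Averaged over the libraries, fibroblasts held 50.2% and endothelial cells 47.2% of a library's Cxcl12 UMIs, but the libraries differed. Fibroblasts held 3889 UMIs in sham, 3083 in TAC-2w, 811 in TAC-4w and 892 in TAC-6w. Endothelial cells held 1305, 2507, 4258 and 576 in the same order.

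Cxcl12 differed between the vessel types as well. Capillary cells had 1595 CPM in sham, 1485 in TAC-2w, 1985 in TAC-4w and 1237 in TAC-6w, with 81.3% to 88.8% of cells holding a UMI. Arterial cells had 289, 731, 640 and 315 CPM. The endocardial or large vessel cells had 24.8 CPM in sham (155 cells) and 26.7 in TAC-2w (98 cells), and lay below the capillary cells of the same libraries throughout. The lymphatic cells, led by Ccl21a and Mmrn1, had 36.2 CPM of Cxcl12 but were only 14 in number. Cxcl16 ran the other way, at 174 CPM in the endocardial or large vessel cells of sham against 34.1 to 51.3 CPM in the capillary cells of the 4 libraries, and it was detected in 74.6% of the former over all libraries.

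In fibroblasts Cxcl12 was highest in the sub-cluster led by Gdf10 and Sost, with 360 CPM in sham (94 cells), 217 in TAC-2w (69 cells) and 206 in TAC-4w (204 cells). The largest fibroblast sub-cluster had 127, 96.7, 61.9 and 194 CPM of Cxcl12 in the order of the conditions.

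**Figure D2:**
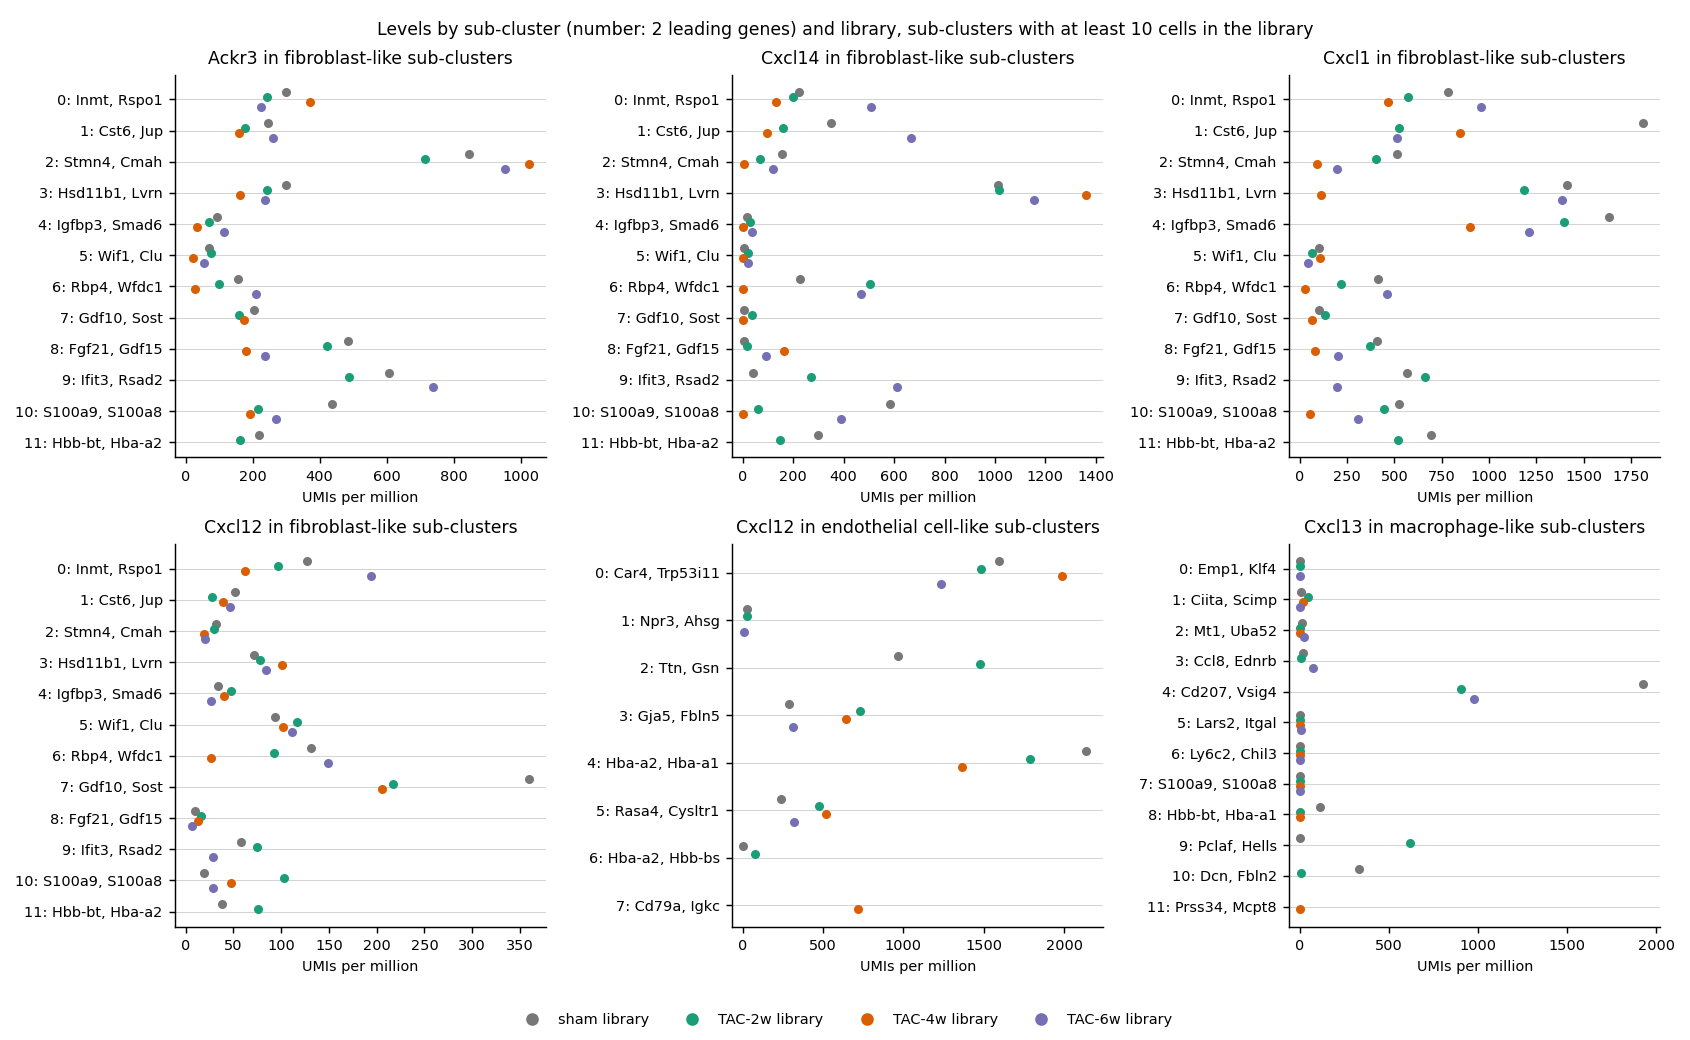
Levels (CPM) of Ackr3, Cxcl14, Cxcl1 and Cxcl12 in fibroblast sub-clusters, Cxcl12 in endothelial sub-clusters and Cxcl13 in macrophage sub-clusters, with 1 point for each library. Cxcl12 reached 1985 CPM in capillary cells and 26.7 CPM in endocardial or large vessel cells, and Ackr3 reached 1026 CPM in the fibroblasts led by Stmn4.

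Cxcl13 was found mainly in macrophages, which carried on average 86.0% of a library's UMIs of it (51.6% to 98.9%). They held it at 229 CPM in sham, 107 in TAC-2w, 25.9 in TAC-4w and 49.3 in TAC-6w, although only 1.2% to 5.2% of macrophages had a UMI, and no other type averaged above 2.12 CPM. The macrophage level exceeded that of fibroblasts by 7.08 on the log2 scale and that of endothelial cells by 8.31 (adjusted p = 6.71e-16 and 1.12e-14). One macrophage sub-cluster, led by the lectin gene Cd207 and the complement receptor gene Vsig4, held 4071 of the Cxcl13 UMIs in 365 cells, at 1926 CPM in sham, 905 in TAC-2w and 975 in TAC-6w. In TAC-4w it had 6 cells and 18 UMIs. The sub-clusters led by Ccl8 and Fcna, by Emp1 and Klf4 and by Ly6c2 and Chil3 had 13.3, 0.543 and 0.431 CPM of Cxcl13. Cxcr5, the receptor of Cxcl13, was found in B cells at 73.2 ± 6.18 CPM.

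Cxcl14 in fibroblasts was 294 CPM in sham, 312 in TAC-2w, 94.6 in TAC-4w and 508 in TAC-6w, and its range lay apart from that of every other type. The level was 24.4 times the endothelial level (log2 fold 4.61, SE 0.61, adjusted p = 9.00e-09) and 15.2 times the macrophage level (adjusted p = 1.38e-07). It marked some fibroblasts and not others. The sub-cluster led by Hsd11b1 and Lvrn had 1013, 1015, 1360 and 1155 CPM of Cxcl14 in the order of the conditions, the largest sub-cluster 224, 198, 131 and 508 CPM, and the one led by Igfbp3 and Smad6 18.4, 29.7, 0 and 38.5 CPM. In TAC-4w these sub-clusters had only 21, 60 and 16 cells, so the 0 CPM there sets no close limit. The Wif1 sub-cluster had 5.18 to 20.2 CPM. A sub-cluster led by Cst6 and Jup had 1913 of its 2095 cells in TAC-6w, where its Cxcl14 level was 667 CPM.

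Cxcl1 divided the fibroblasts differently. The Hsd11b1 sub-cluster had 1410 CPM of Cxcl1 in sham, 1186 in TAC-2w, 110 in TAC-4w and 1383 in TAC-6w, and the Igfbp3 sub-cluster, which was nearly without Cxcl14, had 1635, 1397, 897 and 1211 CPM. The TAC-4w values came from 21 and 16 cells. The Wif1 sub-cluster was low in Cxcl1 as well, at 42.1 to 108 CPM.

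Cxcl16 in macrophages was 275 CPM in sham, 243 in TAC-2w, 411 in TAC-4w and 334 in TAC-6w, with 59.7% to 79.3% of cells holding a UMI. Endothelial cells had 121, 83.6, 41.1 and 54.9 CPM, and fibroblasts averaged 63.2 ± 10.4 CPM with a UMI in 31.5% to 46.9% of cells. Both were lower than macrophages, by 2.57 and 2.60 on the log2 scale (adjusted p = 3.89e-10 and 1.17e-10), and did not differ from each other beyond the spread (log2 fold -0.03, SE 0.30, unadjusted p = 0.929). The macrophage sub-clusters were made from macrophages and monocytes together. Among them the gene was low in the sub-cluster led by Ly6c2 and Chil3, genes of classical monocytes, at 80.9 CPM, and stood at 379 CPM in the Cd207 sub-cluster and 375 CPM in the one led by the MHC class II regulator Ciita. Cxcr6, the receptor of Cxcl16, was 198 ± 67.0 CPM in T cells. Adam10 was highest in endothelial cells, at 158 CPM.

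Cxcr4, the receptor of Cxcl12, was a gene of leukocytes. Neutrophils had 913 CPM in sham, 711 in TAC-2w, 666 in TAC-4w and 941 in TAC-6w, monocytes 594, 580, 299 and 694, and B cells 337, 283, 451 and 453. The ranges of neutrophils and monocytes overlapped, and so did those of monocytes and B cells. Macrophages had 131, 116, 160 and 268 CPM, and T cells and NK cells averaged 164 and 155 CPM. Neutrophils exceeded macrophages 7.48-fold (log2 2.90, SE 0.46, adjusted p = 3.93e-07), and B cells exceeded fibroblasts by 7.08 on the log2 scale (adjusted p = 2.93e-16). A Cxcr4 UMI was found in 72.2% to 81.2% of neutrophils, 74.3% to 79.2% of monocytes, 49.9% to 79.3% of B cells and 44.8% to 51.8% of macrophages, against 1.6% to 9.7% of fibroblasts, which served as the background although they were the deeper cells, with median UMI counts of 6205 to 13963 against 1445 to 3418 in neutrophils. After cells were thinned to 1000 UMIs, with shallower cells left out, the mean share was 53.1% in neutrophils, 30.4% in B cells and 14.6% in macrophages. The thinned share of fibroblasts is not given here. Free RNA can add UMIs to cells that do not express a gene.

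Ackr3, the scavenging receptor of Cxcl12, was a gene of stromal cells. Fibroblasts had 401 CPM in sham, 287 in TAC-2w, 251 in TAC-4w and 308 in TAC-6w, with 53.3% to 68.5% of cells holding a UMI, and endothelial cells 155, 107, 123 and 153 CPM. T cells, the background for Ackr3, held a UMI in 0% to 5.96% of cells at medians of 2652.5 to 5803 UMIs. The fibroblast range lay apart from the endothelial range, the fold was 2.52 (log2 1.34, SE 0.31, adjusted p = 0.000418), and with DESeq2 the adjusted p was 0.0850. Both types exceeded macrophages, by 6.37 and 5.04 on the log2 scale (adjusted p = 2.34e-19 and 6.05e-16). Endothelial cells thus had the highest Cxcl12 level and also Ackr3, while Cxcr4 was lower in fibroblasts than in endothelial cells by 1.80 on the log2 scale (adjusted p = 0.00182) and lower in endothelial cells than in macrophages by 3.95 (adjusted p = 1.00e-09). The call of Ackr3 as higher in neutrophils than in macrophages (adjusted p = 0.0472) rested on 1 cell of TAC-6w that held 90.9% of the neutrophil UMIs, and without that library the log2 fold was 0.17.

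Fibroblast sub-clusters differed widely in Ackr3. The one led by Stmn4 and Cmah had 845 CPM in sham, 714 in TAC-2w, 1026 in TAC-4w and 952 in TAC-6w, and 96.9% to 100% of its cells held a UMI. The largest sub-cluster had 299, 242, 373 and 225 CPM of Ackr3, the Igfbp3 sub-cluster 94.9, 70.4, 34.7 and 113 CPM, and the Wif1 sub-cluster 69.9, 74.9, 23.2 and 55.6 CPM. In TAC-4w these 4 sub-clusters had 30, 60, 16 and 40 cells. The order of these 4 sub-clusters was led by the Stmn4 sub-cluster in all 4 libraries. The 14 lymphatic endothelial cells had 419 CPM of Ackr3, against 99.5 CPM in capillary cells.

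The genes whose pattern over the 46 sums of a type and a library was most like that of a member (Pearson r of log2(CPM + 1), among 8271 genes) were the following. For Cxcl1 it was Pmp22 (r = 0.908), for Cxcl2 the inflammasome gene Nlrp3 (r = 0.914), for Cxcl9 Zmynd15 (r = 0.849), for Cxcl10 Slco2b1 (r = 0.779) and for Cxcl12 Fbxl7 (r = 0.898). For Cxcl13 it was Cd207 (r = 0.910), for Cxcl14 Olfml3 (r = 0.882), for Cxcl16 Sash1 (r = 0.896), for Cxcr4 Gmfg (r = 0.928) and for Ackr3 Ppic (r = 0.908), with Cd34 next. The sums share libraries and cell types, so r is given as a description only.

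In the sections the question was how the amount of each gene in whole tissue differed after TAC. With 1 section each, fewer cells of a type and less RNA per cell cannot be told apart. Mitochondrial UMIs, which count in the totals, were 51.5% of the sham section, 43.4% of TAC-2w, 42.2% of TAC-4w and 44.2% of TAC-6w. The larger share in sham lowers the sham CPM of the other genes and so raises their ratios to sham. In TAC-2w, the section that shares its batch with sham, 0 of the 8 members compared were at least 2-fold higher and 2 were at least 2-fold lower than sham, against 1.55% and 2.20% of all genes. The median log2 ratio of the 8 was -0.73, against 0.03 over all genes compared. In TAC-4w 3 of 9 were higher and 0 lower (7.08% and 1.86% of all genes), with a median of 0.02 against 0.21. In TAC-6w 0 of 8 were higher and 1 was lower (7.20% and 0.898% of all genes), with a median of 0.43 against 0.31. The 3 comparisons share the sham section.

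**Figure D3:**
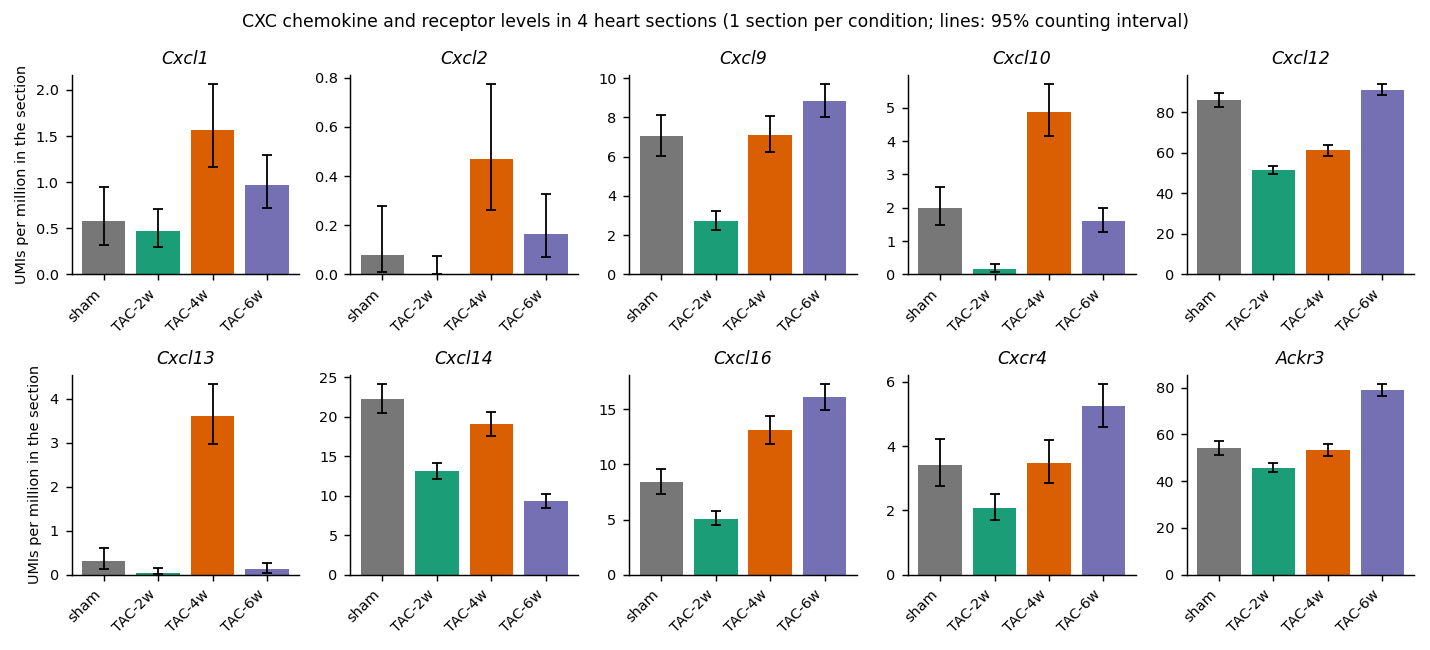
Levels of the 10 genes (CPM, with exact Poisson 95% intervals as lines) in the sham section and the 3 TAC sections. Cxcl13 stood at 3.60 CPM in TAC-4w and at or below 0.308 CPM in the other sections, and Cxcl14 was lowest in TAC-6w at 9.32 CPM.

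Cxcl13 gave the largest ratio. Its section level was 0.308 CPM in sham (8 UMIs), 0.0410 in TAC-2w (2 UMIs), 3.60 in TAC-4w (115 UMIs) and 0.124 in TAC-6w (6 UMIs). TAC-4w was 11.7 times sham (95% interval 5.74 to 27.7) and did not rest on a few spots, since 86 of 1228 spots held a UMI, the highest spot held 8, and the ratio was 14.5 without the highest spot of each section. In the TAC-4w library, in contrast, macrophage Cxcl13 was 0.113 times sham. The summed macrophage markers of the sections were 251, 229, 488 and 368 CPM and the summed B cell markers 18.2, 15.2, 21.8 and 26.3 CPM in the order of the conditions, and their part in the Cxcl13 level was not tested. Cxcr5 had at most 3 UMIs in a section.

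Cxcl9 and Cxcl10 differed in how they were spread over the tissue. Cxcl9 was 7.04 CPM in sham (183 UMIs), 2.71 in TAC-2w (132), 7.11 in TAC-4w (227) and 8.82 in TAC-6w (426). The share of spots with a UMI was 4.89%, 5.57%, 14.2% and 15.0%. This share also depends on depth, and the median UMIs of a spot were 15488.5, 24523, 27593 and 20203 in the same order. TAC-2w was 0.385 times sham (95% interval 0.305 to 0.484). Cxcl10 was 2.00 CPM in sham (52 UMIs in 15 spots), 0.164 in TAC-2w (8 UMIs in 6 spots), 4.88 in TAC-4w (156 UMIs in 71 spots) and 1.59 in TAC-6w (77 UMIs in 59 spots). TAC-2w was 0.082 times sham (95% interval 0.0337 to 0.174) and TAC-4w 2.44 times sham (1.77 to 3.41).

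A single spot decided part of these ratios. One sham spot held 67 of the 183 Cxcl9 UMIs (36.6%) and 28 of the 52 Cxcl10 UMIs (53.8%) of its section, and the summed level of 22 interferon-inducible genes was 2792 CPM in it against 192 CPM in the whole section. The 15 spots within 2 spot steps of it, itself included, held 99 of the Cxcl9 UMIs (54.1%) and 39 of the Cxcl10 UMIs (75.0%). Without the highest spot of each section Cxcl9 in TAC-2w was 0.592 times sham and no longer past 2-fold, and Cxcl9 in TAC-4w and TAC-6w was 1.56 and 1.93 times sham. Cxcl10 stayed past 2-fold in TAC-2w (0.111 times) and TAC-4w (4.71 times), and in TAC-6w its ratio turned from 0.797 to 1.64. The TAC-4w spot with the most Cxcl10 held 17 UMIs and had 9544 CPM of the interferon-inducible genes against 821 CPM in its section, and the 10 highest spots held 51.3% of the TAC-4w Cxcl10 UMIs.

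**Figure D4:**
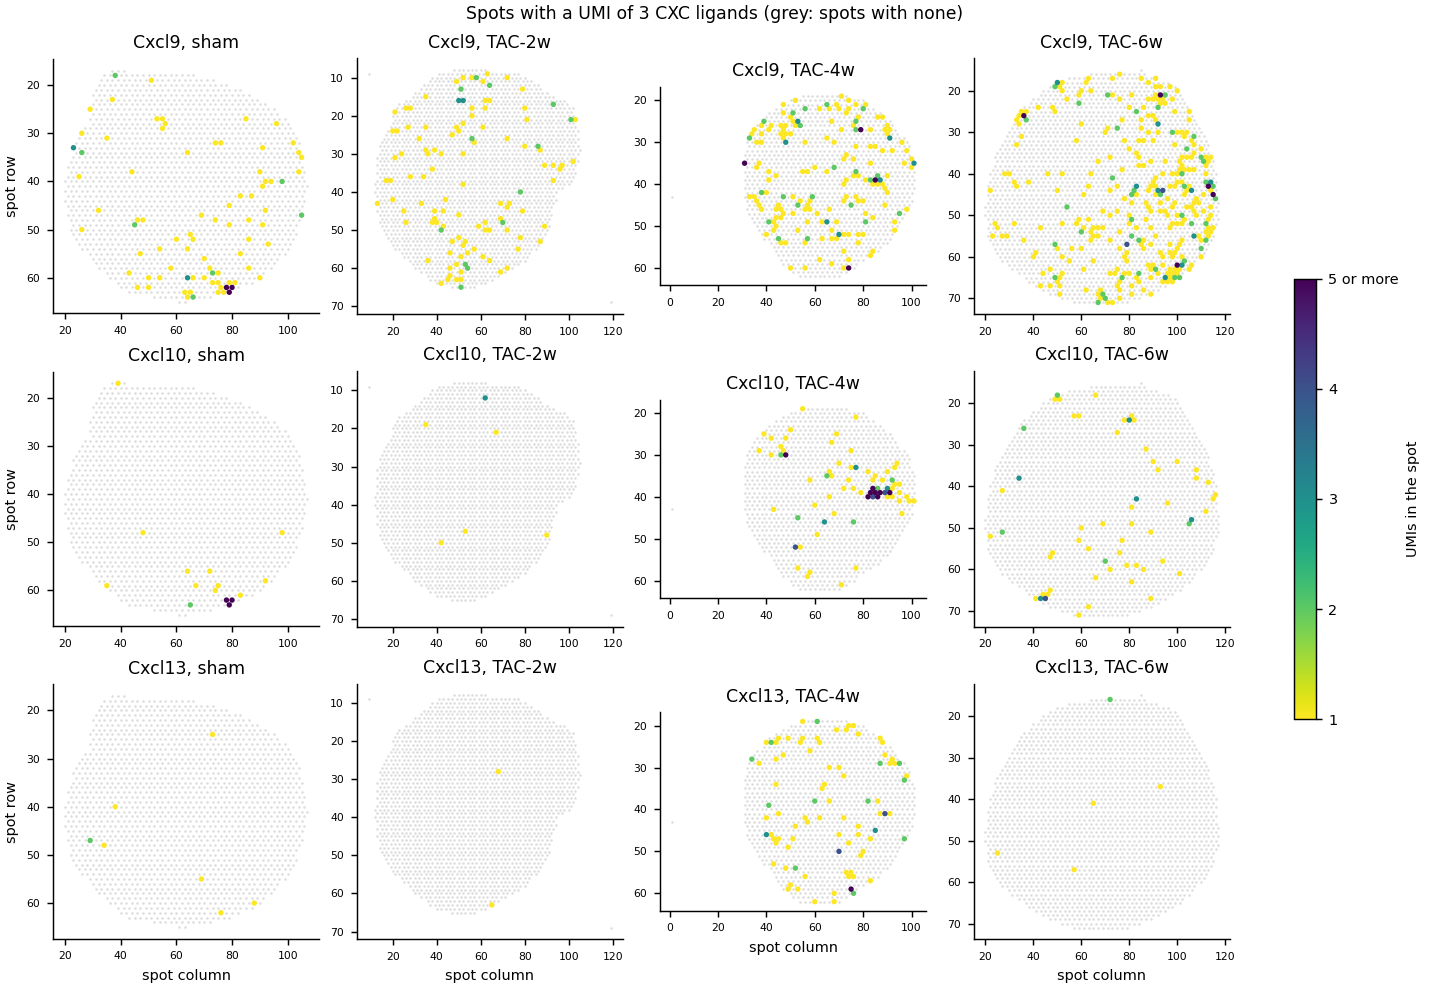
Spots of the 4 sections by array position, coloured by their UMIs of Cxcl9, Cxcl10 and Cxcl13. The sham spot with 67 Cxcl9 and 28 Cxcl10 UMIs lies in a small group of high spots at the lower edge, while Cxcl9 in TAC-6w lay in 328 spots and Cxcl13 in TAC-4w in 86.

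The interferon-inducible list itself was higher in TAC-4w for 21 of its 22 genes, with a median log2 ratio of 2.22 against 0.21 over all genes, and in TAC-6w for 9 of 22 (0.94 against 0.31). In TAC-2w only Gbp5 of the 22 was past 2-fold. In the libraries, macrophages, fibroblasts, endothelial cells and neutrophils did not show this. Other cell types, cardiomyocytes among them, were not compared. In TAC-4w 0 of the 22 were higher and 9 lower in macrophages, 1 higher and 7 lower in fibroblasts, 0 higher and 3 lower in endothelial cells, and 1 higher and 9 lower of 18 compared in neutrophils. Over all genes 5.11%, 9.23%, 7.74% and 7.15% were higher and 7.27%, 5.10%, 10.6% and 10.4% lower in these types, in the same order. In TAC-6w 0 were higher and 5 lower in macrophages, 0 higher and 10 lower in fibroblasts, 1 higher and 4 lower in endothelial cells, and 0 higher and 8 lower of 14 in neutrophils. The shares of all genes there were 2.37%, 3.58%, 5.17% and 6.92% higher and 6.19%, 6.55%, 13.9% and 13.8% lower. In endothelial cells the list was thus not far from all genes. The transcription factor gene Irf7 was 6.49 times sham in TAC-4w and 2.76 times in TAC-6w. Cxcr3 was 0.308 CPM in sham, 0.246 in TAC-2w, 0.720 in TAC-4w and 1.2 in TAC-6w, a ratio of 3.90 for TAC-6w (95% interval 1.85 to 9.47). Summed T cell markers were 2.38, 1.68, 6.64 and 10.1 CPM and NK cell markers 1.31, 1.13, 7.17 and 8.82 CPM in the same order. Cxcr3 and these marker sums were thus highest in the section with the most Cxcl9, and their relation was not tested.

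Cxcl1 was 0.577 CPM in sham (15 UMIs), 0.472 in TAC-2w (23), 1.57 in TAC-4w (50) and 0.973 in TAC-6w (47), and the TAC-4w ratio was 2.71 (95% interval 1.5 to 5.2). Cxcl2 had 2, 0, 15 and 8 UMIs, too few to be compared. Neutrophil markers summed to 58.8, 52.2, 128 and 43.4 CPM and were thus highest in the same section as Cxcl1, and their part was not tested. Of 17 other NF-kB response genes compared, 4 chemokine genes (Ccl2, Ccl3, Ccl4 and Ccl7) were past 2-fold higher in TAC-4w, with ratios of 2.08, 7.32, 6.63 and 2.01.

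Cxcl14 was 22.2 CPM in sham, 13.1 in TAC-2w, 19.1 in TAC-4w and 9.32 in TAC-6w, and TAC-6w was 0.420 times sham (95% interval 0.370 to 0.476). Summed fibroblast markers were 1689, 1540, 2139 and 2087 CPM in the order of the conditions, and in the fibroblasts of the TAC-6w library Cxcl14 was higher than in sham, at 508 against 294 CPM. Sections and cells therefore went in opposite directions for Cxcl14 in TAC-6w.

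Cxcl12, Cxcl16, Cxcr4 and Ackr3 stayed within 2-fold of sham in all 3 TAC sections. Cxcl12 was 86.0, 51.6, 61.3 and 91.3 CPM and Ackr3 54.1, 45.8, 53.3 and 78.8 CPM in the order of the conditions. Cxcr4 was 3.42, 2.07, 3.48 and 5.24 CPM. Cxcl16 was 8.42, 5.09, 13.1 and 16.1 CPM. Its TAC-6w ratio, with mitochondrial UMIs counted in the totals, was 1.91 (95% interval 1.64 to 2.23). Its receptor Cxcr6 was 3.05 times sham in TAC-4w and 4.71 times in TAC-6w (95% interval 2.26 to 11.3). Summed endothelial markers were 1222, 1168, 1608 and 2126 CPM.

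**Figure D5:**
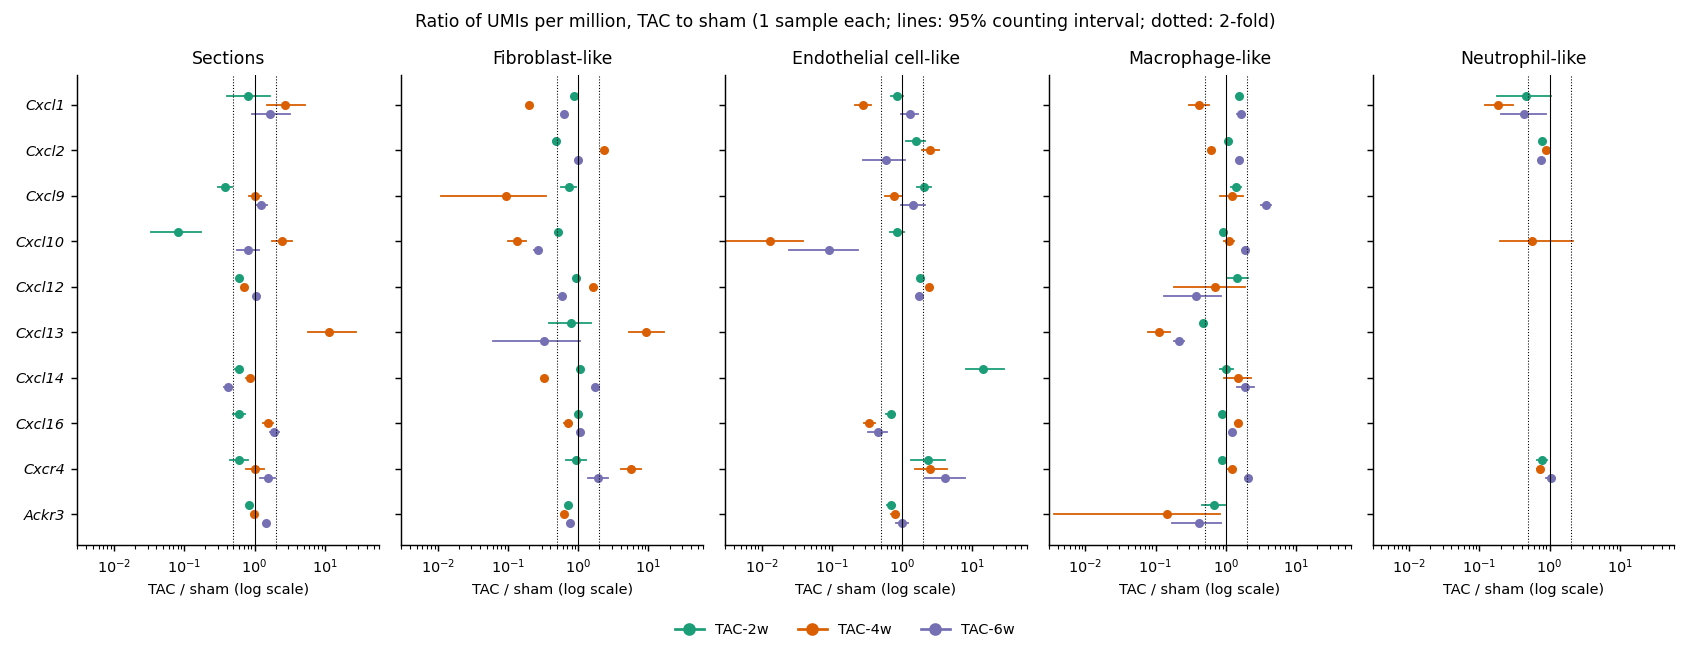
Ratios of each TAC section or library to sham (log axis, lines are 95% intervals for counting error) for the sections and for fibroblasts, endothelial cells, macrophages and neutrophils. Cxcl13 in the TAC-4w section stands at 11.7, and Cxcl10 in TAC-4w endothelial cells at 0.0131.

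Within a cell type the members differed from sham in different ways. In fibroblasts 1 of the 10 members was past 2-fold in TAC-2w, Cxcl2 at 0.474 times sham (1.40% of all genes were higher and 1.09% lower). In TAC-4w 3 were higher and 4 lower (9.23% and 5.10%). Cxcl1 was at 0.200 times sham, Cxcl9 at 0.0935 with 2 UMIs, Cxcl10 at 0.135 and Cxcl14 at 0.322, while Cxcl2 was at 2.36, Cxcl13 at 9.32 and Cxcr4 at 5.70. In TAC-6w, whose library shares its batch with sham, 0 were higher and 3 lower (3.58% and 6.55%), namely Cxcl10 at 0.266, Cxcl13 at 0.321 with 3 UMIs, and Cxcl9 with 0 UMIs against 165, a ratio of at most 0.0467 when 3 counts are set for the 0. The 4 that were lower in TAC-4w fibroblasts include Cxcl1 and Cxcl14, while Ackr3, of which fibroblasts carried 90.5% of a library's UMIs on average, stayed within 2-fold.

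RNA of leukocytes was found together with the higher Cxcl2 and Cxcr4 of TAC-4w fibroblasts. Of the 840 Cxcl2 UMIs there, 712 lay in a sub-cluster of 22 cells led by S100a9 and S100a8, calcium-binding proteins of neutrophils. The B cell genes Igkc, Ighm and Cd79a were also among its leading genes, and B cells were 37.2% of the TAC-4w cells. The summed neutrophil markers of fibroblasts were 128, 164, 813 and 219 CPM in the order of the conditions. With each cell named by its own marker score, Cxcl2 in TAC-4w fibroblasts was lower than sham, at a log2 ratio of -1.57 in place of 1.24. The part of neutrophil or B cell RNA in the Cxcr4 value was not tested. A single cell held 58.6% of the Cxcl13 UMIs of these fibroblasts and 74.5% of their Cxcl10 UMIs. The fibroblast clusters also shifted, since the cluster led by Pla1a made up 44.0%, 41.9%, 19.0% and 73.5% of fibroblasts and the one led by Rbp4 52.4%, 53.3%, 71.5% and 24.1%. The Gdf10 sub-cluster had 94 of 4483 fibroblasts in sham and 204 of 432 in TAC-4w. The Hsd11b1 sub-cluster, which was high in Cxcl14, had 767 and 21. Within it Cxcl14 was not lower in TAC-4w than in sham, but in the largest sub-cluster it was. The Igfbp3 sub-cluster, low in Cxcl14 in sham already, had too few TAC-4w cells (16) to tell. The part of these shifts in the ratios was not tested.

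In endothelial cells of TAC-2w 3 of 9 members were higher and 0 lower (2.25% and 1.56% of all genes), namely Cxcl9 at 2.06 times sham, Cxcr4 at 2.32 and Cxcl14 at 14.3, for which 1 cell held 92.9% of the UMIs. Within the named capillary sub-cluster Cxcl9 was 168 CPM in sham and 164 CPM in TAC-2w, so it was not higher there. In TAC-4w 3 of 8 were higher and 3 lower (7.74% and 10.6%). Cxcl12 was at 2.43 times sham, Cxcl2 at 2.51 and Cxcr4 at 2.54, and Cxcl1 was at 0.281, Cxcl10 at 0.0131 with 3 UMIs and Cxcl16 at 0.340. In the same cells 12 of 14 immediate early and heat shock genes (median log2 ratio -2.30) and 11 of 18 other NF-kB response genes (median -1.27) were lower than sham, against a median of 0.09 over all genes, and their part in the lower Cxcl1 was not tested. In TAC-6w 1 of 8 was higher and 2 lower (5.17% and 13.9%), Cxcr4 at 4.09 with 21 UMIs, Cxcl10 at 0.0912 with 4 UMIs and Cxcl16 at 0.453. The cluster led by Npr3 and Plvap, which was low in Cxcl12 and high in Cxcl16, made up 36.2%, 19.7%, 0.622% and 9.09% of endothelial cells in the order of the conditions. Within the named capillary sub-cluster alone TAC-4w held 1985 CPM of Cxcl12 against 1595 in sham, a smaller difference than over all endothelial cells. Both capillary comparisons leave out the unnamed cells that scored as capillary, most of which came from sham and TAC-2w. Summed neutrophil markers of endothelial cells were 103, 73.7, 289 and 30.4 CPM. A small sub-cluster led by the B cell genes Cd79a and Igkc had 12 of its 15 cells in TAC-4w. The part of either in the Cxcl2 and Cxcr4 values was not tested.

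Macrophages of TAC-2w had 0 of 10 members higher and 1 lower (0.896% and 1.01% of all genes), Cxcl13 at 0.467 times sham. In TAC-4w 0 were higher and 3 lower (5.11% and 7.27%), Cxcl1 at 0.417, Cxcl13 at 0.113 and Ackr3 at 0.144 with 1 UMI. In TAC-6w 2 were higher and 3 lower (2.37% and 6.19%), Cxcl9 at 3.71 and Cxcr4 at 2.04 times sham and Cxcl12 at 0.372 with 6 UMIs, Cxcl13 at 0.215 and Ackr3 at 0.414 with 8 UMIs. The Cxcl9 ratio came from 289 UMIs against 270, and a single cell held a large part of them in each library, as given above. Cxcl13 was thus below sham in all 3 TAC libraries. The Cd207 sub-cluster that carries it had 177 cells in sham, 160 in TAC-2w, 6 in TAC-4w and 22 in TAC-6w. The libraries held 1622, 1594, 164 and 915 macrophages in the same order, and the part of the sub-cluster in the ratios was not tested. In neutrophils Cxcl1 was the only member past 2-fold, at 0.455, 0.186 and 0.433 times sham from 27 UMIs in sham, of 3, 4 and 3 members compared (5.25%, 10.4% and 13.8% of all genes were lower and 3.66%, 7.15% and 6.92% higher). Cxcl2 and Cxcr4, the members that neutrophils hold most of, stayed within 2-fold there at every time.

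Position in the tissue was tested over the 4 sections, by splitting each into spots of a context and the rest. The section was the block in edgeR. Folds between contexts are again those of the fit after rescaling of the sums (TMM), and can differ from the CPM ratios. Cxcl2 and Cxcl13 were too low for any of these tests, and Cxcl1 for 2 of them. In spots rich in macrophage genes 3 of 7 members were higher and 0 lower (7.22% and 7.14% of all genes). Cxcl16 was 1.56 times the level of other spots (log2 fold 0.64, SE 0.11, adjusted p = 1.68e-05), Cxcl14 1.32 times (adjusted p = 0.00212) and Cxcl10 2.25 times (adjusted p = 0.00287). The Cxcl16 level in these spots against the rest was 16.3 against 7.35 CPM in sham, 6.08 against 4.97 in TAC-2w, 20.0 against 12.2 in TAC-4w and 28.4 against 14.9 in TAC-6w, so it was higher in 4 of 4 sections. Cxcl10 rested on 1 spot of the sham section, the one described above, which held all 28 Cxcl10 UMIs of the 168 macrophage-rich spots there, and without that section its log2 fold was 0.53 (adjusted p = 0.305).

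In spots rich in collagen genes 3 of 8 were higher and 0 lower (8.73% and 9.43% of all genes). Ackr3 was 1.18 times the level of other spots (adjusted p = 0.00178) and higher in 4 of 4 sections, at 72.6 against 51.8 CPM in sham, 59.0 against 44.4 in TAC-2w, 76.4 against 50.8 in TAC-4w and 97.3 against 76.7 in TAC-6w. Cxcl16 was 1.33 times (adjusted p = 0.0133) and Cxcl10 1.67 times (adjusted p = 0.0440). Cxcl16 lost its call without the TAC-4w section (adjusted p = 0.0643) or the TAC-6w section (0.381), and so did Cxcl10 (0.556 and 0.167).

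In spots rich in smooth muscle genes 2 of 7 were higher and 1 lower (6.60% and 6.94% of all genes). By the fit Cxcl14 was at 1.40 times the level of other spots (adjusted p = 0.00500), Ackr3 at 1.18 times (adjusted p = 0.0227) and Cxcl9 at 0.524 times (adjusted p = 0.0127). The CPM ratios of Cxcl14 were 2.13, 1.33, 1.48 and 1.85 in the order of the conditions. Those of Cxcl9 were 0.470, 1.06, 0.515 and 0.603, from 5, 7, 6 and 9 UMIs in the smooth muscle-rich spots. In TAC-6w these spots were shallow, with a median of 6123.5 UMIs against 20879 in the other spots. In sham the medians were 18303.5 and 15417, in TAC-2w 24764 and 24499.5, and in TAC-4w 27157 and 27611. All 3 calls were lost without the sham section (adjusted p = 0.147, 0.0793 and 0.104), and most of them without one of the others. Between the spots at the edge of the tissue and the interior, edgeR called 0 of 8 members (1.53% of all genes were higher and 1.13% lower at the edge), 3 had an unadjusted p under 0.05 (Cxcl1, Cxcl9 and Cxcl12), and DESeq2 also called 0.

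The dissociated cells and the sections of 1 condition gave very different levels of some members. Over all genes the median ratio of cell CPM to section CPM was 2.84 in sham, 2.89 in TAC-2w, 2.16 in TAC-4w and 1.99 in TAC-6w. For Cxcl1 it was 1064, 1081, 22.0 and 425 and for Cxcl2 9146 in sham, at least 13907 in TAC-2w, 6053 in TAC-4w and 5136 in TAC-6w. The section counts of Cxcl2 were only 2, 0, 15 and 8 UMIs, so its ratios are rough. Cxcl12, in contrast, had 0.854, 1.68, 2.15 and 0.606, and Cxcl9 1.55, 6.43, 0.550 and 1.44. The 6 markers of the main source of Cxcl1, fibroblasts, had median ratios of 17.2, 19.6, 7.48 and 8.41, and those of macrophages 11.9, 17.2, 1.18 and 6.18. Immediate early and heat shock genes had median ratios over 14 genes of 136, 211, 33.3 and 116 and other NF-kB response genes had medians of 57.6, 104, 25.4 and 43.0. Cxcl1 and Cxcl2 thus stood far above the sections in the dissociated cells together with these gene groups, whose part was not tested.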

How the data were processed

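RNA was measured in 4 single-cell libraries and 4 Visium sections of mouse heart, 1 of each condition. The authors deposited raw UMI counts per gene and barcode, 1 matrix per sample, aligned to mm10 per the labels. The file headers name cellranger 6.0.0 and spaceranger 1.2.0, whereas the submitters' processing notes name Cell Ranger 7.0.0 and Space Ranger 1.3.1, and which versions made the counts was not settled. The spot position files give array rows and columns, and their image scaling was not used.

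Cells outside 500 to 30000 UMIs or 200 to 6000 detected genes were dropped, as were those with 15% or more of their UMIs mitochondrial. The 3.2% of cells with the highest Scrublet score in each library (scanpy 1.11.5, expected rate 7%) were removed, following the share removed in the methods of the study. Clustering used Seurat 5.3.0 with 3000 variable genes without the 10 members, 30 principal components, resolution 0.25 and 0.4 within a type. Clusters were named from 6 fixed markers per type. In all 813 cells stayed unnamed, and 7 mural cells of TAC-4w were left out because fewer than 10 cells made no sum. The members, gene lists and tests were chosen with earlier results of these data known.

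Levels are CPM of summed UMIs. A gene was compared between conditions where both sums together held at least 20 UMIs, and past 2-fold means a ratio of at least 2 or at most 0.5. A sum of 0 was set to 3 counts for a bound. Cell types and spot contexts were tested with edgeR 4.0.16 (quasi-likelihood, TMM, Benjamini-Hochberg over all genes, threshold 0.05), with the library or section as a block. All named cell types were fitted together. The spread behind a p-value between 2 types was thus pooled over all types and libraries, and not taken from the 2 types alone. Each context was fitted on its own, over the 4 sections. The block joins the cell types of 1 library or the spots of 1 section. Contexts were the top 5% of spots by smooth muscle genes, the top 10% by collagen or macrophage genes, and spots with fewer than 6 neighbours over tissue. The ratio intervals were checked on simulated counts. So was the edgeR test of fibroblasts against endothelial cells, with counts drawn for these types and macrophages only. That simulation set a single spread for all genes and no differences between libraries other than depth, so it does not cover the other contrasts. DESeq2 1.42.0 and other settings were alternatives. All 10 members are named, and genes of the lists where they were past 2-fold in a section or highest in the type described.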

Additional observations from a re-analysis of the deposited data

How the results depend on the processing

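Of the 679 values for members called between cell types or spot contexts under other settings, 620 kept their direction and their call, 58 lost the call and 1 turned direction. The turned value was Cxcl16 in mural cells against fibroblasts, with a log2 fold of 0.0152 in place of -2.77 when each cell was named by its own marker score. Under the same naming Cxcl2 in TAC-4w fibroblasts turned from a log2 ratio of 1.24 to -1.57, mural cells had 1 member higher and 1 lower than fibroblasts, TAC-6w endothelial cells 2 higher and TAC-6w neutrophils 0 lower. The cause was not tested.

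The library or section block was left out as an alternative. Without the section block, 0 members were called in any context, against 3 in smooth muscle-rich, 3 in collagen-rich and 3 in macrophage-rich spots. Without the library block the counts between cell types stayed within 1.5 times (Cxcl1 between endothelial cells and macrophages and Ackr3 between neutrophils and macrophages lost their calls). No paired analysis was possible because each condition had 1 library and 1 section, so TAC against sham carried no test at all. With DESeq2, smooth muscle-rich spots had 1 higher and 0 lower and collagen-rich spots 1 higher. With no filter on low counts, smooth muscle-rich spots had 1 higher, and with the wider context threshold 1 higher and 0 lower. Leaving out 1 section gave 0 to 2 higher and 0 to 1 lower in smooth muscle-rich spots, 1 to 3 higher in collagen-rich spots and 2 to 4 higher in macrophage-rich spots. Leaving out 1 library gave 0 to 1 higher in mural cells against fibroblasts.

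Counts past 2-fold depended on the fold and on the minimum. Shares of all genes were computed for the main settings only. The counts under other settings, here and above and below, thus show how the counts move and cannot set the members against other genes. At 1.5-fold the TAC-2w section had 6 lower and the TAC-6w section 3 higher. In fibroblasts there were then 2 lower in TAC-2w and 2 higher and 5 lower in TAC-6w, in endothelial cells 5 higher in TAC-2w and 2 higher in TAC-6w, in macrophages 1 higher in TAC-2w and 6 higher in TAC-6w, and in neutrophils 2 lower in TAC-4w. With at least 50 UMIs, 0 were higher in TAC-6w endothelial cells and 0 lower in TAC-2w and TAC-6w neutrophils. With no minimum, the TAC-6w section had 1 higher and 2 lower, and neutrophils had 3 lower in TAC-2w, 6 lower in TAC-4w and 1 higher and 2 lower in TAC-6w. With the mean CPM of spots in place of sums, the TAC-2w section had 1 lower and the TAC-6w section 1 higher and 0 lower. With the mean CPM of cells, TAC-2w fibroblasts had 0 lower, TAC-4w and TAC-6w endothelial cells 0 higher and TAC-6w macrophages 4 higher.

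Leaving mitochondrial and rRNA-like features out of the total gave 1 higher in TAC-6w macrophages. With a mitochondrial share under 5%, TAC-2w fibroblasts had 1 higher, TAC-4w fibroblasts 2 lower, TAC-6w endothelial cells 4 higher, TAC-2w macrophages 0 lower and TAC-4w macrophages 1 higher, and the mean share with a UMI was 52.1% for Cxcr4 in macrophages and 43.3% for Ackr3 in endothelial cells. With no doublets removed, fibroblasts had 1 higher and 0 lower in TAC-2w and 1 higher in TAC-6w, TAC-6w endothelial cells 4 lower and TAC-6w neutrophils 0 lower. Without the highest spot of each section, a setting chosen after seeing the data, the TAC-2w section had 1 lower. After thinning to 1000 UMIs, with shallower cells left out, the mean share with a UMI was 30.4% in B cells, 53.1% in neutrophils and 14.6% in macrophages for Cxcr4, in place of 61.6%, 78.5% and 48.3%. For Ackr3 it was 21.5% in fibroblasts and 10.8% in endothelial cells, in place of 62.3% and 37.3%.

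Depth limited Cxcl2 and Cxcl13 most in the sections, where 3 counts correspond to 0.0615 to 0.115 CPM and Cxcl2 had at most 15 UMIs. Few cells limited the TAC-4w library, in which 164 macrophages and 432 fibroblasts carried the values.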
